A study of Mus musculus with 16 samples.

Results

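This is a comparison of gastrocnemius muscle from Galgt2 transgenic mdx mice with gastrocnemius muscle from Galgt2 transgenic mice, the difference that dystrophin deficiency makes where the Galgt2 transgene is present on both sides. It sets 4 of the 16 expression arrays of the series against each other, picked by their titles, 2 from each group. The spread behind the p-values was shared over 12 muscle arrays. These include mdx muscle given AAV-Galgt2 or PBS, from mice aged 2 months, 2 arrays each. The AAV-Galgt2 and PBS arrays had median intensities of 25.3 to 25.7 over all probe sets, against 57.7 to 63.9 in the other muscle arrays. The Galgt2 transgenic mice were males of strain C57BL/6J aged 2 months. The Galgt2 transgenic mdx mice were males of the same age from a C57BL/10J x C57BL/6J background that lacked dystrophin and carried the same transgene. Wild-type C57BL/6J males and mdx C57BL/10J males of 2 months, 2 arrays each, gave the corresponding mdx difference without the transgene. Strain background changes together with the mdx mutation in both comparisons, so the effect of the mutation and that of the background cannot be told apart. Between the mdx mice with and without the transgene the background differs as well, so transgene and background cannot be told apart there. The promoter that drives the transgene is not given in the sources used here. The labels do not say whether the 2 arrays of a group came from separate mice, so the p-values measure the spread between these arrays, which may be technical.

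Dystrophin links the actin skeleton of the muscle fibre to a glycoprotein complex in its membrane and, through dystroglycan, to laminin outside the cell. The mdx mouse carries a nonsense mutation in Dmd, so the protein is lost while transcript is still made, and its young muscle passes through rounds of fibre death, macrophage entry and regeneration. Galgt2, listed under the symbol B4galnt2, is a glycosyltransferase that adds a terminal N-acetylgalactosamine to glycans and is normally concentrated at the neuromuscular junction. Mice that overexpress it in muscle have been studied because the added sugar changes which proteins bind dystroglycan.

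Each array gave an intensity per probe set, and all levels here are log2 intensities of the brightest probe set of a gene. The replicate arrays correlated at r = 0.985 in both groups over 18194 genes. Replicate 1 of Galgt2 transgenic and replicate 1 of Galgt2 transgenic mdx muscle correlated at 0.993, above either group's own replicates. Replicate 2 of Galgt2 transgenic mdx muscle stood apart in the 3′ to 5′ ratio of the Gapdh control probe sets, a sign of RNA quality, at 1.23 on the log2 scale against 0.18 to 0.48 in the other 7 arrays of the set. Replicate 1 of Galgt2 transgenic muscle stood apart in neutrophil and marrow genes, as given below. Ckm, the muscle creatine kinase that marks fast fibres, had levels of 12.63 and 12.74 in Galgt2 transgenic and 12.37 and 11.94 in Galgt2 transgenic mdx muscle, so skeletal muscle transcripts were abundant in all 4 arrays.

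The transgene was high in all 4 arrays, with B4galnt2 at 13.17 and 13.32 without and 13.28 and 13.34 with the mdx mutation, a difference of 0.07 ± 0.91 (limma standard error) whose 95% interval runs from -1.94 to 2.08. The interval uses a spread shared with the other groups, among which mdx replicate 1 was at 3.86 and mdx replicate 2 at 7.78.

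Dmd itself was the check on the mutation. Its levels of 9.86 and 9.87 in Galgt2 transgenic mdx muscle compare with 11.16 and 10.98 in Galgt2 transgenic muscle, a mean of 43.4% of the transgenic level. The groups did not overlap, and all 4 Dmd probe sets gave a negative difference, from -1.05 to -1.85. The difference of -1.20 ± 0.20 ranked at place 18 among all genes by p and did not pass after adjustment (limma, Benjamini-Hochberg adjusted p = 0.130). Over the 24 alternative analyses its adjusted p lay between 0.0650 and 1.00. Wild-type muscle had Dmd levels of 11.14 and 11.16 and mdx muscle 8.52 and 8.13, a fall of 2.82 ± 0.20 (adjusted p = 0.000475). By this probe set the mdx difference in Dmd was thus 1.62 smaller in size with the transgene present, and that interaction did not pass (adjusted p = 0.101). The contrast depends on the probe set. The other bright probe set had 11.04 and 11.11 in wild-type and 8.33 and 7.08 in mdx muscle (-1.85 with the transgene). A dimmer one had 6.93 and 6.19 against 5.1 and 4.99 (-1.47 with the transgene). Another had 6.5 and 6.71 against 6.84 and 5.1 (-1.05 with the transgene). Of the 30 measured genes that lie nearest to Dmd on the X chromosome, 15 on each side, 0 passed and differences ran from -0.30 to 0.43.

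Few genes separated the groups. Against an adjusted p of 0.05 (limma, Benjamini-Hochberg over 18194 genes, two-sided), 10 genes differed, 9 higher and 1 lower in Galgt2 transgenic mdx muscle, which is 0.055% of all genes tested (0.0495% higher and 0.0055% lower). At an unadjusted p under 0.05 there were 708 genes or 3.89% (501 higher, 2.75%, and 207 lower, 1.14%). The median gene differed by 0.07, and 60.9% of genes lay above 0. Scaling every array to the same median moved the median gene to -0.06, so lists whose median lies that close to 0 have no settled sign. With that scaling the calls were 7 higher and 2 lower. The count fell to 4 without either wild-type array and to 6 without any 1 of the AAV-Galgt2 and PBS arrays of mdx muscle, which enter only through the shared spread. It was 22, with 6 higher and 16 lower, without Galgt2 transgenic replicate 2. It was 0 with the Gapdh 3′ to 5′ ratio as a covariate.

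Among the 10 genes that passed, the largest rise was in Rab6b, a small GTPase of Golgi transport that is best known in neurons. Its log2 levels were 6.65 and 5.07 in Galgt2 transgenic and 8.94 and 9.31 in Galgt2 transgenic mdx muscle. Both mdx arrays of the set without the transgene were also above both wild-type arrays, at 8.32 and 9.19 against 7.01 and 7.47. The rise with the transgene was 3.27 ± 0.45, or 9.62-fold (adjusted p = 0.0490). The 3 other Rab6b probe sets gave 0.47, 0.70 and 1.16, so the size depends on the probe set. Rab6b passed in 3 of 12 analyses that each left out 1 array, with adjusted p from 0.00971 to 0.341. It was lost without either wild-type, AAV-Galgt2, PBS or Galgt2 transgenic mdx array, or without Galgt2 transgenic replicate 2.

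Muc15, a membrane-bound mucin, had the smallest p of the genes outside chromosome 13. It had levels of 5.57 and 5.30 in Galgt2 transgenic and 8.17 and 7.79 in Galgt2 transgenic mdx muscle. Wild-type muscle was at 3.61 and 3.82 and mdx muscle at 2.93 and 3.18, below both transgenic groups. Muc15 rose by 2.55 ± 0.23, or 5.84-fold (adjusted p = 0.00286), and kept its call in all 12 analyses that each omitted 1 array. BC080696, an RNA gene on chromosome 5, was low in wild-type and mdx muscle, where all 4 arrays lay between 3.27 and 3.38. It had levels of 4.63 and 3.94 in Galgt2 transgenic and 6.64 and 7.56 in Galgt2 transgenic mdx muscle. BC080696 rose by 2.81 ± 0.30, or 7.04-fold (adjusted p = 0.0112), and kept its call in the same 12 analyses. Tmem125, a membrane protein gene on chromosome 4, had levels of 4.80 and 5.06 in Galgt2 transgenic and 6.67 and 6.60 in Galgt2 transgenic mdx muscle. Tmem125 rose by 1.71 ± 0.20 (adjusted p = 0.0166), its other probe set gave 0.69, and its adjusted p reached 0.102 over the analyses that left out 1 array. It was lost without either wild-type array, either Galgt2 transgenic mdx array or Galgt2 transgenic replicate 1.

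Scn4b, the beta-4 subunit of voltage-gated sodium channels, was the only gene with a lower level among the 10 that passed. Its levels were 11.36 and 11.54 in Galgt2 transgenic and 10.14 and 9.76 in Galgt2 transgenic mdx muscle. Wild-type muscle had 12.70 and 12.50 and mdx muscle 12.40 and 12.32, so both transgenic groups were below both groups without the transgene. Scn4b fell to 35.3% of its Galgt2 transgenic level, 2.83-fold lower with a standard error of 0.21 on the log2 scale (adjusted p = 0.0490). Its call was lost with any 1 of the 12 arrays left out, at adjusted p from 0.0581 to 0.341.

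**Figure D1:**
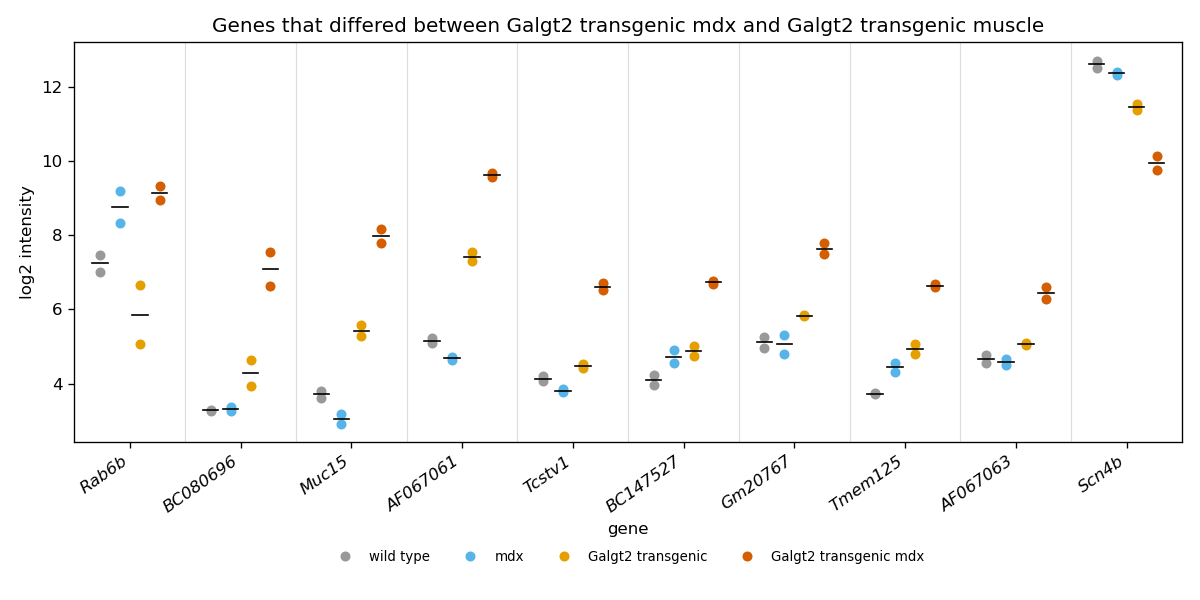
Log2 intensity of the 10 genes that passed, in the 2 arrays of each of 4 groups (points) with the group mean (black bar). In each gene the 2 Galgt2 transgenic mdx arrays lie outside the range of the 2 Galgt2 transgenic arrays, above it for 9 genes and below it for Scn4b.

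The other 5 rises sit together at the far end of chromosome 13. By gene order in the RefSeq annotation of assembly GRCm38.p6, a block of 31 annotated genes that ends with the last gene of the chromosome holds 7 measured genes, in the order AF067063, D13Ertd608e, Tcstv1, Gm20767, AF067061, BC147527 and Tcstv3. Tcstv1 and Tcstv3 are named for transcripts that vary at the 2-cell stage of the embryo. The block was started at AF067063, itself a gene that passed, so its contrast with the genes before it was partly fixed by that choice. Of the 7, 5 passed, and these are 5 of the 9 rises found among all genes. The differences of the 7 ran from 1.38 to 2.50, while the 10 measured genes just before the block ran from -0.27 to 1.17 with 0 passing. On the whole chromosome 705 genes were tested.

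AF067061 had the smallest p of all genes tested. It had levels of 7.54 and 7.30 in Galgt2 transgenic and 9.57 and 9.67 in Galgt2 transgenic mdx muscle, against 5.22 and 5.09 in wild-type and 4.64 and 4.73 in mdx muscle. It rose by 2.20 ± 0.18, or 4.59-fold (adjusted p = 0.00286). Tcstv1 was near 4 in every array without the transgene and at 4.41 and 4.53 in Galgt2 transgenic muscle, and reached 6.70 and 6.53 in Galgt2 transgenic mdx muscle. It rose by 2.15 ± 0.19 (adjusted p = 0.00286). Both kept their call in all 12 analyses that omitted 1 array.

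BC147527 went from 5.02 and 4.73 to 6.68 and 6.77, a rise of 1.85 ± 0.24 (adjusted p = 0.0410). Gm20767 went from 5.81 and 5.84 to 7.49 and 7.78, a rise of 1.80 ± 0.24 (adjusted p = 0.0410). AF067063 went from 5.05 and 5.10 to 6.62 and 6.29, a rise of 1.38 ± 0.19 (adjusted p = 0.0490). These 3 calls were close to the threshold. With 1 array left out, BC147527 remained in 4 of 12 analyses, those without an mdx or AAV-Galgt2 array, Gm20767 in the 2 without an mdx array and AF067063 in 0, with adjusted p up to 0.297, 0.315 and 0.163. The 2 block members that did not pass had similar differences and wider errors. D13Ertd608e had 6.87 and 5.50 against 8.73 and 8.65 (2.50 ± 0.37, adjusted p = 0.0516), and Tcstv3 had 3.13 and 2.84 against 5.19 and 4.36 (1.80 ± 0.26, adjusted p = 0.0516).

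In the pair without the transgene, the mdx minus wild-type differences of the 7 genes ran from -0.47 for AF067061 to 0.63 for BC147527, and 0 passed. The probe sets of AF067061, BC147527 and D13Ertd608e are of types that can bind transcripts of near-identical genes, so signal among copies in this block cannot be split with certainty. Duxf3, which encodes the factor that activates genes of the 2-cell embryo and was looked up after these values were seen, had a difference of 0.20 (adjusted p = 1.00). Its levels were 2.74 and 3.06 in Galgt2 transgenic and 3.22 and 2.98 in Galgt2 transgenic mdx muscle. These are near the lower end of the array's range, so the difference cannot show whether this transcript changed.

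**Figure D2:**
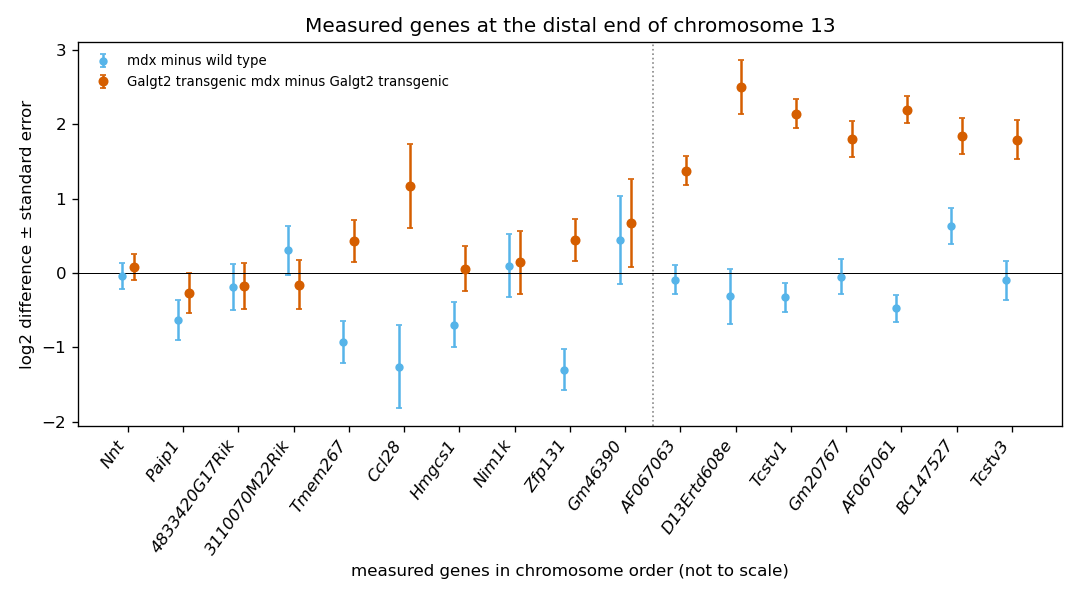
Log2 difference ± limma standard error of 17 measured genes in their order along the distal end of chromosome 13, for mdx minus wild type (blue) and Galgt2 transgenic mdx minus Galgt2 transgenic (orange). The dotted line was set before AF067063, itself a gene that passed. Right of it the 7 block genes lie between 1.38 and 2.50 in the transgenic comparison, and left of it the 10 preceding genes lie between -0.27 and 1.17.

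The promoter window of AF067061 is shown because this gene led the block. It spans 250 bases before to 50 bases after the annotated start, at chr13:120262845-120263144 on the + strand of GRCm38.p6 (RefSeq), and the capitals mark TGATTCAAT, the core of the motif known for mouse Dux, which was searched on both strands after the window had been read. The letters begin 179 bases before the start.
AF067061: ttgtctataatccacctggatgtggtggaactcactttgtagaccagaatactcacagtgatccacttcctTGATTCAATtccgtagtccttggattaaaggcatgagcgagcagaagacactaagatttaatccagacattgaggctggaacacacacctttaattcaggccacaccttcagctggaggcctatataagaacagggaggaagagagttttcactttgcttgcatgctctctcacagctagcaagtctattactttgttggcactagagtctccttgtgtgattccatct
Of 14453 tested genes with such a window, 14 (0.0969%) hold these letters, and AF067061 is the only 1 of the 14 that passed here. Because the search followed the reading of this window, that share is no test of the match in AF067061. The window of BC147527 does not hold the letters. AF067063, D13Ertd608e, Tcstv1, Gm20767 and Tcstv3 have no such window, so these block genes could not be searched. A match is a description of the letters and not a binding site.

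Genes of the interferon pathway lay above 0 as a group without any of them passing. Interferons are secreted when sensors detect foreign or misplaced nucleic acid, and through their receptors and the STAT factors they switch on antiviral effectors, guanylate-binding GTPases, chemokines and antigen presentation. Of 71 listed genes 62 were measured, and 58 had a difference above 0, with a median of 0.72 against 0.07 for all genes. In 29 the unadjusted p was under 0.05 with a positive difference and in 0 with a negative one, beside 2.75% and 1.14% of all genes. The 2 groups did not overlap for 37 genes with higher and 1 with lower values in Galgt2 transgenic mdx muscle, beside 20.4% and 9.48% of all genes, or 29.9% in either direction. After adjustment 0 of 62 passed, and the smallest adjusted p was 0.0516.

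The list's median level per array was 8.14 and 7.54 in Galgt2 transgenic and 8.86 and 8.51 in Galgt2 transgenic mdx muscle. Both Galgt2 transgenic mdx arrays were above both Galgt2 transgenic arrays. Wild-type arrays had medians of 7.03 and 7.23 and mdx arrays 7.91 and 8.01, so the 2 Galgt2 transgenic mdx arrays were the highest of the 8. The median difference was 0.47 without Galgt2 transgenic replicate 2 and 0.41 without Galgt2 transgenic mdx replicate 1, and 0.92 and 0.89 without the other array of each group. It was 0.60, with 51 of 62 above 0, after scaling to the same median, and 0.88 with the Gapdh ratio as a covariate.

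The differences are given by role, from ligand to induced gene. The ligands are near the lower end of the array's range. Ifng, interferon gamma, had 3.39 and 3.60 in Galgt2 transgenic and 3.91 and 4.61 in Galgt2 transgenic mdx muscle (0.76 ± 0.31, adjusted p = 1.00), and the median of 5 ligands was 0.36. The 4 receptors had a median of -0.06. The 11 sensors, among them Tlr3 (0.61 ± 0.24), the endosomal receptor for double-stranded RNA, and Sting1 (0.96 ± 0.36), the adaptor for cytosolic DNA, had a median of 0.59. The 8 signalling and transcription factors had a median of 0.46, with Stat2 at 0.81 ± 0.25 and Irf7 at 0.95 ± 0.38.

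The induced effectors come last in the pathway. All 19 measured antiviral effectors were above 0, with a median of 1.03 and 11 at an unadjusted p under 0.05. Ifit3, an RNA-binding antiviral protein, had levels of 8.69 and 8.27 in Galgt2 transgenic and 11.00 and 10.00 in Galgt2 transgenic mdx muscle, against 7.29 and 7.41 in wild-type and 8.44 and 8.27 in mdx muscle. Its difference was 2.01 ± 0.30 (adjusted p = 0.0516), with adjusted p from 0.0187 to 0.286 when 1 array was left out. Mx2, a dynamin-like antiviral GTPase, had 3.89 and 4.05 against 5.27 and 5.22 (1.27 ± 0.23, adjusted p = 0.183).

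All 8 measured immunity GTPases were above 0, with a median of 1.14 and 7 at an unadjusted p under 0.05. Gbp3, a guanylate-binding protein, had 8.27 and 7.68 against 9.50 and 9.20 (1.37 ± 0.29, adjusted p = 0.463). Irgm1, a GTPase that restrains its relatives on cell membranes, had 8.38 and 8.01 against 9.43 and 9.01 (1.02 ± 0.23, adjusted p = 0.589). Of the feedback inhibitors, Usp18, which blocks the type I receptor, was at 1.42 ± 0.33 with separate groups. Socs3 was at 1.44 ± 0.76 with groups that overlap, since Galgt2 transgenic mdx replicate 1 had 8.56 and replicate 2 had 10.48. The chemokines Cxcl10 (1.14 ± 0.34) and Ccl5 (1.64 ± 0.54), which draw T cells, were at 8.29 and 7.86 against 9.67 and 8.76 and at 7.84 and 5.86 against 8.61 and 8.37.

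The same list gave a median of 0.76 for mdx minus wild type, where 12 genes rose and 1 fell (5.44% of all genes passed there, 3.75% higher). No interferon gene passed the test of the interaction, in which 0.044% of all genes passed.

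**Figure D3:**
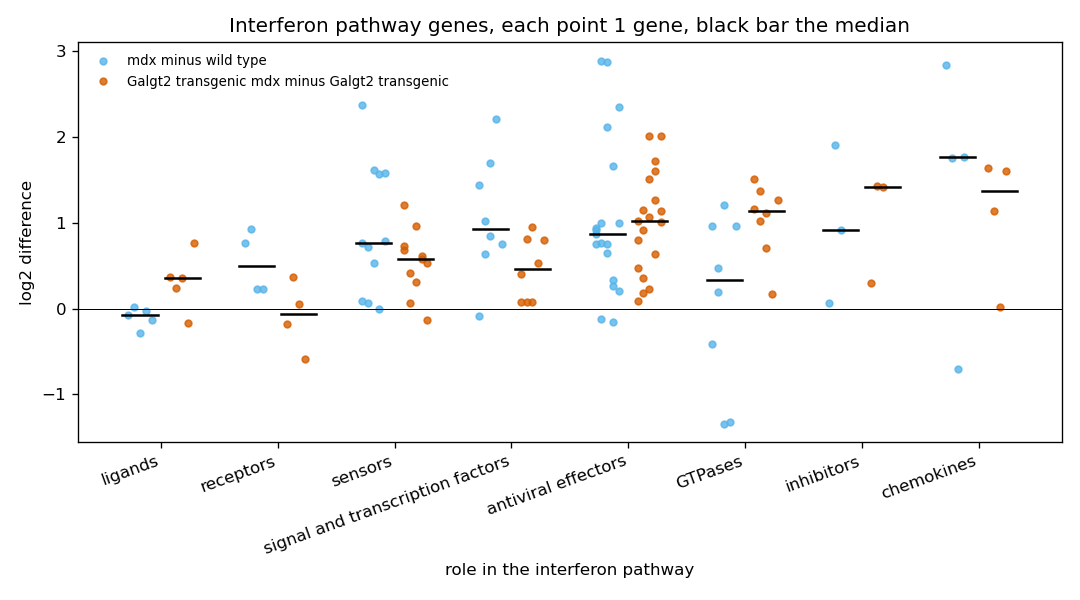
Log2 differences of 62 measured interferon pathway genes by their role, for mdx minus wild type (blue) and Galgt2 transgenic mdx minus Galgt2 transgenic (orange), with the median as a black bar. In the transgenic comparison the medians run from -0.06 for 4 receptors to 1.42 for 3 inhibitors, and all 19 antiviral effectors and all 8 GTPases lie above 0.

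Promoter windows of 4 of these genes are shown because their difference is measured at transcripts that such sequences are known to control. The motif searched on both strands was 2 copies of GAAA with any 2 bases between them, the repeat at the heart of the interferon-stimulated response element. Matches are in capitals and read as 2 copies of TTTC where they lie on the opposite strand, and overlapping matches run together. The 4 are the list members of smallest p whose window holds the motif, in windows of 250 bases before to 50 after the start (RefSeq, GRCm38.p6). They are Ifit3 (chr19:34583279-34583578, + strand), Gbp3 (chr3:142559794-142560093, + strand), Irgm1 (chr11:48871371-48871670, - strand) and Gbp2 (chr3:142620413-142620712, + strand).
Ifit3: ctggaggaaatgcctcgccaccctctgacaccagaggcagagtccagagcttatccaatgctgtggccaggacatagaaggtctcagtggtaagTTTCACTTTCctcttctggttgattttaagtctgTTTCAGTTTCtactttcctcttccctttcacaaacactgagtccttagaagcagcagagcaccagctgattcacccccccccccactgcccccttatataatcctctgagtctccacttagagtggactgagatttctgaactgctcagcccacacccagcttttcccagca
Gbp3: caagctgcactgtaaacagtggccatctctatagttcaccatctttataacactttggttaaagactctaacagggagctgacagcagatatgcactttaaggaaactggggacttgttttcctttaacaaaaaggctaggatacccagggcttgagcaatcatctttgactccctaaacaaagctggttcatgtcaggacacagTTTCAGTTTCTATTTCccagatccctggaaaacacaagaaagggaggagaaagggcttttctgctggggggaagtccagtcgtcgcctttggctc
Irgm1: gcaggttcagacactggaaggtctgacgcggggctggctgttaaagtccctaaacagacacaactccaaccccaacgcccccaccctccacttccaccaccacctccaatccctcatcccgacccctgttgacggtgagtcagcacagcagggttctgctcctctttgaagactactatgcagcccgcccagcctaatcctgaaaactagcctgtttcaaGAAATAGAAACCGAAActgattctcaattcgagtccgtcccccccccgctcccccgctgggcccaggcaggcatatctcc
Gbp2: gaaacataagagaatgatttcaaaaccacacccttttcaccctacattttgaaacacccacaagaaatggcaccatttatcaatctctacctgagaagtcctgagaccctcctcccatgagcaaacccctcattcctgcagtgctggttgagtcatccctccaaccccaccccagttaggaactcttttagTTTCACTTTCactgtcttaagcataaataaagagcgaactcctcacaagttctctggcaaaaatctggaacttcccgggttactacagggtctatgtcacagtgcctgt
Ifit3 holds 2 separate matches that begin 156 and 122 bases before the start. Gbp3 and Irgm1 each hold 2 overlapping matches, beginning 45 and 39 bases before the start in Gbp3 and 30 and 24 in Irgm1, and Gbp2 holds 1 at 59. Of the 48 interferon pathway genes with a window, 23 (47.9%) hold a match, against 524 of 14453 (3.63%) among all tested genes with one. The list was chosen for this pathway, so the share describes the list and does not bear on these arrays.

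Immune cell markers differed in direction by cell type. In bulk muscle, more cells of a type and more RNA per cell cannot be told apart. Of 40 measured macrophage and monocyte genes 29 lay above 0 with a median of 0.31, and 0 passed. Their summed intensity was 40665 and 28957 in Galgt2 transgenic and 41206 and 43325 in Galgt2 transgenic mdx muscle, so the lowest array was Galgt2 transgenic replicate 2. Without that array the median was 0.09, and without replicate 1 it was 0.58. Ccr2, the receptor that brings in monocytes, had 8.69 and 8.45 against 9.20 and 9.62 (0.83 ± 0.24, adjusted p = 1.00). Within the list, 20 pan-macrophage genes had a median of 0.59 and 11 damage-associated genes one of -0.27. Antigen presentation had 15 of 17 genes above 0 and a median of 0.31, with Tap1, the peptide transporter, at 7.20 and 7.28 against 8.26 and 8.14 (0.96 ± 0.21, adjusted p = 0.508). Its median level was 10.28 and 10.13 in Galgt2 transgenic and 10.51 and 9.98 in Galgt2 transgenic mdx muscle. By this measure the groups overlap and Galgt2 transgenic mdx replicate 2 was the lowest, unlike in the interferon list. Its summed intensity was 30233 and 26383 against 36597 and 30920, so by that measure both Galgt2 transgenic mdx arrays were higher. The part of these cells in the interferon values was not tested.

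Lymphocyte genes had the highest median of all lists, 0.98 over 18 genes, 15 of them above 0 and 0 passing. Its size rests on single arrays. The summed intensity was 1627 and 736.4 in Galgt2 transgenic and 1406 and 3110 in Galgt2 transgenic mdx muscle, so the groups overlap by this measure. The list's median level was 5.85 and 4.91 against 5.96 and 6.54, so by that measure they do not overlap. Without Galgt2 transgenic replicate 1 or 2 the median was 1.37 and 0.42, and without Galgt2 transgenic mdx replicate 1 or 2 it was 1.51 and 0.35. Gzma, a granzyme of killer cells, had 5.68 and 4.80 against 6.64 and 6.17 (1.17 ± 0.39, adjusted p = 1.00).

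Granulocyte and mast cell genes had the lowest median, -0.87 over 18 genes, with 3 above 0 and 7 lower at an unadjusted p under 0.05, beside 1.14% of all genes. Most of the size comes from 1 array. Ngp, a neutrophil granule protein, had 10.19 and 6.66 in Galgt2 transgenic and 4.44 and 4.98 in Galgt2 transgenic mdx muscle (-3.72 ± 0.86, adjusted p = 0.592). Camp, the antimicrobial cathelicidin, had 8.34 and 5.55 against 4.39 and 3.84 (-2.83 ± 0.71, adjusted p = 0.820). The summed intensity was 13089 and 1885 against 1639 and 2352, so by this measure only Galgt2 transgenic replicate 1 was high. The list's median level was 7.58 and 5.41 against 4.59 and 4.65, so by that measure replicate 2 was also above both Galgt2 transgenic mdx arrays. Slc4a1, the red cell anion exchanger, was high in Galgt2 transgenic replicate 1 at 8.64, against 4.85, 4.25 and 4.67 in the other 3. Without Galgt2 transgenic replicate 1 the median was -0.19, and without replicate 2 it was -1.80 and 6 of the genes passed as lower, among 16 of all genes in that analysis.

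In the dystrophin complex 0 genes passed. Of 14 measured genes 4 lay above 0 and the median was -0.18, with 3 lower and 1 higher at an unadjusted p under 0.05, beside 1.14% and 2.75% of all genes. Without Galgt2 transgenic replicate 2 the median was 0.0069. Sgcd, delta-sarcoglycan of the sarcoglycan subcomplex, had 8.64 and 8.76 in Galgt2 transgenic and 7.48 and 7.13 in Galgt2 transgenic mdx muscle, against 8.23 and 8.40 in wild-type and 7.08 and 6.98 in mdx muscle. Both dystrophin-deficient groups were below both others. The difference with the transgene was -1.40 ± 0.22 (adjusted p = 0.0800, passing in 2 of 24 alternatives) and that without it was -1.29 (adjusted p = 0.0107), with an interaction of -0.11. Nos1, the neuronal nitric oxide synthase that dystrophin anchors, is named after its values were seen. It had 8.42 and 8.67 against 7.96 and 6.21 (-1.46 ± 0.51), and the low value is from Galgt2 transgenic mdx replicate 2, the array with the high Gapdh ratio. Utrn, the dystrophin relative utrophin, had 12.55 and 12.31 against 12.53 and 11.42, and Dag1, dystroglycan, 11.72 and 12.07 against 11.66 and 11.80. The 1 higher gene was Sntb1, the adaptor beta-1-syntrophin, also named after its values were seen, at 11.41 and 10.91 against 11.86 and 11.64 (0.60 ± 0.23, adjusted p = 1.00). Of laminins, agrin and integrins 0 of 19 passed, with a median of -0.05.

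Of 28 regeneration genes 16 lay above 0, the median was 0.02 and 0 passed, where mdx minus wild type had 9 rises and a median of 0.65. The share of all genes that rose in mdx muscle was 3.75%, which stands beside this count and those of the 2 lists below. Myh8, the neonatal myosin of new fibres, had 9.24 and 8.75 in Galgt2 transgenic and 9.78 and 10.27 in Galgt2 transgenic mdx muscle, against 5.09 and 5.65 in wild type (1.03 ± 0.40, adjusted p = 1.00). It was thus above wild type in both transgenic groups. Cell cycle genes had a median of 0.08 with 0 of 28 passing, where mdx minus wild type had 14 rises and a median of 1.29. The cell cycle median has no settled sign, at 0.28 and -0.11 without Galgt2 transgenic replicate 1 and 2 and at 0.32 and -0.12 without Galgt2 transgenic mdx replicate 1 and 2. Extracellular matrix genes had a median of -0.04 with 0 of 40 passing, where 12 rose in mdx muscle. The Galgt2 transgenic reference was itself above wild type in these lists. Its median difference from wild type was 1.13 for regeneration, 0.55 for cell cycle and 0.51 for extracellular matrix genes, beside -0.05 for all genes. Col14a1, a fibril-associated collagen, had 9.25 and 9.03 against 8.58 and 8.73, while mdx muscle was above wild type at 10.38 and 10.09 against 9.32 and 9.02.

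Of the contractile and metabolic genes 0 passed. The median was -0.07 for 16 fast fibre genes, 0.05 for 16 slow fibre genes and -0.06 for 24 oxidative phosphorylation genes. Ckm, in the fast fibre list, was at -0.53 ± 0.21. For 16 glycolysis genes the median was -0.20 with 1 above 0, and the groups did not overlap for 7 lower and 0 higher genes, beside 9.48% and 20.4% of all genes. Without Galgt2 transgenic replicate 2 or Galgt2 transgenic mdx replicate 1 this median was -0.08 and -0.07, and without the other array of each group -0.24 and -0.33. Slc2a4, the insulin-responsive glucose transporter, had 11.58 and 12.45 against 11.48 and 11.44 (-0.56 ± 0.29). Neuromuscular junction genes had a median of 0.01 and glycosyltransferases one of 0.06. Endothelial genes had a median of -0.30 with 4 of 17 above 0, which was -0.46 and -0.14 without Galgt2 transgenic replicate 1 and 2 and -0.21 and -0.28 without Galgt2 transgenic mdx replicate 1 and 2. Emcn, an endothelial sialomucin, had 8.01 and 8.75 against 7.73 and 7.31 (-0.86 ± 0.28, adjusted p = 1.00). Over all 34 lists 0 of the 633 measured genes passed in this comparison.

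Fewer genes passed for the mdx difference with the transgene than without it. The references differ, Galgt2 transgenic muscle here and wild-type muscle there. Between mdx and wild-type muscle 990 genes passed (5.44%), 682 higher (3.75%) and 308 lower (1.69%), against 10 in the transgenic pair. With every array scaled to the same median the split in mdx muscle was 540 higher and 1080 lower. The 2 comparisons share no array. At least a 2-fold difference was seen in 1.66% of genes here and in 9.36% there, and the standard deviation of the difference over genes was 0.34 here and 0.63 there. Across the 18194 genes, which are not independent, the differences correlated at r = 0.178. In all 0 genes passed in both.

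Genes that rose in mdx muscle leaned the same way here by a small amount. Of the 682, 540 (79.2%) were above 0, beside 60.9% of all genes, and their median was 0.24 here against 1.69 in mdx muscle. In 67 of them (9.82%) the unadjusted p was under 0.05 in the same direction, and 31 differed by at least 1 on the log2 scale where 623 did in mdx muscle. Of the 308 that fell in mdx muscle, 164 (53.2%) were below 0, with a median of -0.02 against -1.27.

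**Figure D4:**
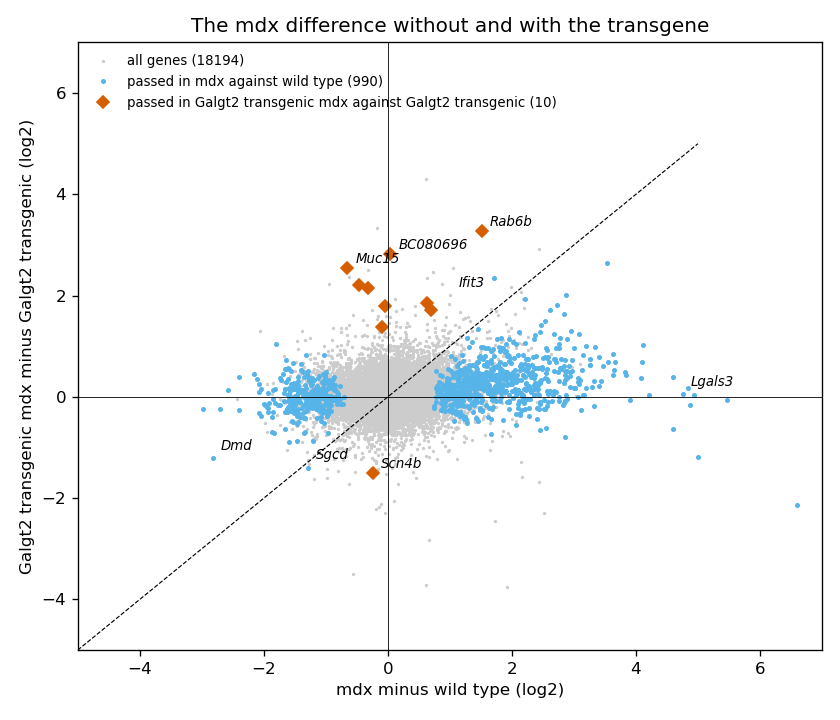
Log2 difference of each of 18194 genes for mdx minus wild type (horizontal axis) and Galgt2 transgenic mdx minus Galgt2 transgenic (vertical axis), with the line of equal differences dashed. The 990 genes that passed in mdx muscle (blue) spread along the horizontal axis, and the 10 that passed in the transgenic pair (orange) lie away from them.

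Tested gene by gene, the mdx difference with the transgene differed from that without it for 8 genes (0.044%). The mdx groups with and without the transgene also differ in strain background, so transgene and background cannot be told apart here. Of the 8 genes, the difference was more positive with the transgene for 4 (0.022%) and more negative for 4 (0.022%). At an unadjusted p under 0.05 there were 2168 (11.9%). The 4 negative ones are macrophage genes. Lgals3, the lectin galectin-3, had 8.19 and 7.25 in wild-type and 12.49 and 12.46 in mdx muscle, then 11.25 and 10.60 in Galgt2 transgenic and 10.91 and 11.05 in Galgt2 transgenic mdx muscle. The transgenic pair thus overlapped at a level between wild type and mdx, with a difference of 0.05 ± 0.43 and an interaction of -4.70 ± 0.61 (adjusted p = 0.0374). Cd84, a receptor of leukocytes, went from 6.17 and 6.29 to 9.94 and 9.40 in mdx muscle but was at 8.19 and 7.61 against 8.0 and 8.40 in the transgenic pair. Ms4a7, a macrophage membrane protein, was at 8.34 and 7.65 against 8.58 and 8.65, and Tyrobp, the signal adaptor of macrophage receptors, at 9.93 and 9.31 against 9.95 and 9.81. For these 4 the level in both transgenic groups lay above wild type and below mdx.

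On the positive side were AF067061, Muc15 and Tcstv1, described above, and Kcnj3, a subunit of G protein-gated potassium channels. Kcnj3 had 6.07 and 5.80 in wild-type and 4.37 and 4.20 in mdx muscle, but 6.58 and 6.39 in Galgt2 transgenic and 7.23 and 6.82 in Galgt2 transgenic mdx muscle (interaction 2.20 ± 0.29, adjusted p = 0.0429). The interaction test rests on few arrays. It gave 0 genes without either wild-type array, 142 without mdx replicate 1, 113 without either PBS array and 30 without Galgt2 transgenic replicate 2, 2 without either AAV-Galgt2 array, 3 without Galgt2 transgenic replicate 1 or Galgt2 transgenic mdx replicate 2, and 15 without Galgt2 transgenic mdx replicate 1. In the analyses that left out 1 array, AF067061 and Muc15 passed in 10 of 12, Tcstv1 in 6, Cd84 and Tyrobp in 5, Lgals3 and Ms4a7 in 4 and Kcnj3 in 3.

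**Figure D5:**
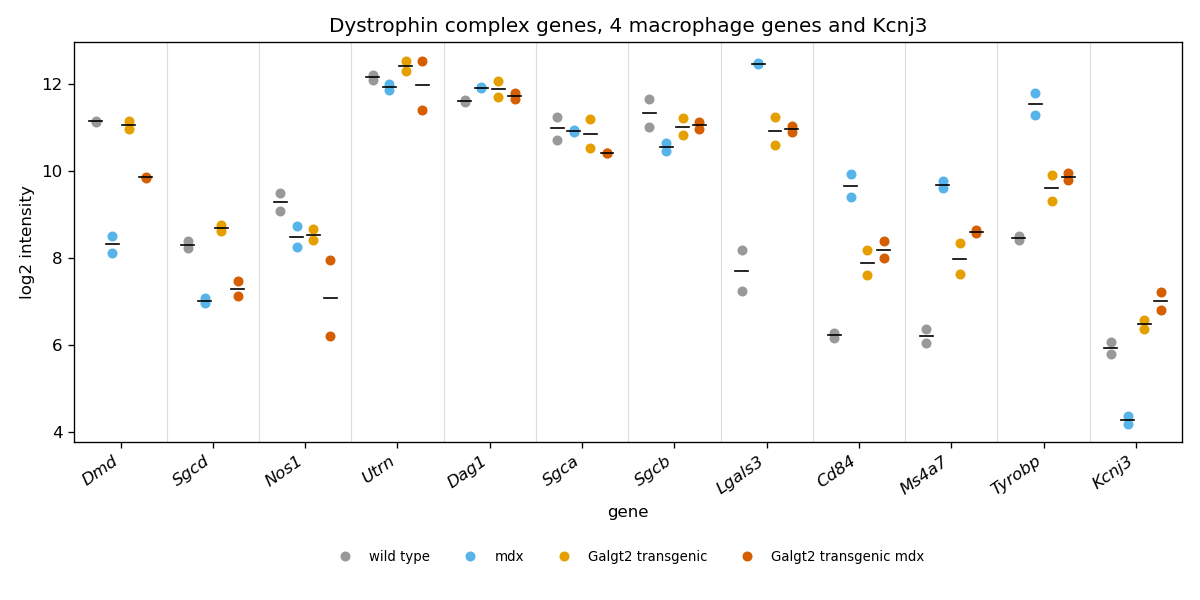
Log2 intensity of 7 dystrophin complex genes and of the 5 genes Lgals3, Cd84, Ms4a7, Tyrobp and Kcnj3 in the 2 arrays of 4 groups (points), with the group mean (black bar). Dmd and Sgcd are lower in both dystrophin-deficient groups than in the matching group with dystrophin, and the macrophage genes are highest in mdx muscle without the transgene.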

How the data were processed

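RNA of gastrocnemius muscle was hybridised to mouse expression arrays. The deposited values are an intensity per probe set, made by the authors with GCOS and RMA per the submitters' processing notes, versions not given; arrays have no read depth and their number limits the precision. They are on a linear scale and were converted to log2. Of 45101 probe sets, 34958 carry 1 gene symbol in the platform annotation, 932 several and 9211 none, and only the first kind was used. Each of 18194 genes was represented by its brightest probe set over 12 muscle arrays. A single limma model (limma 3.58.1 in R 4.3.3) with 6 group means and eBayes covered these 12 arrays, 2 a group, and p-values were adjusted by Benjamini-Hochberg over all genes, with 0.05 as the threshold. Errors are limma standard errors. The method was tested on simulated data. The members, the 34 gene lists (633 of 702 genes measured) and the alternatives were chosen with earlier results of these data known. Named genes are B4galnt2, Dmd, the genes that passed here or in the interaction, and up to 4 passing or 2 of smallest p per list or interferon role. Sequences are from RefSeq (GRCm38.p6), with 14453 genes matched by symbol; no coordinates were read from the array files, which name no build. Alternatives were other scalings, filters, variance models and arrays.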

Additional observations from a re-analysis of the deposited data

Results flagged for a closer look

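For 8 genes the mdx difference with the transgene differed from that without it in a test of the difference itself (limma interaction, Benjamini-Hochberg adjusted p under 0.05). The mdx groups with and without the transgene also differ in strain background, so transgene and background cannot be told apart. Values are the mdx difference with the transgene minus that without it, on the log2 scale. They were more positive with the transgene for Muc15 (3.21 ± 0.32), AF067061 (2.67 ± 0.26), Tcstv1 (2.47 ± 0.28) and Kcnj3 (2.20 ± 0.29). They were more negative for the macrophage genes Lgals3 (-4.70 ± 0.61), Cd84 (-3.13 ± 0.40), Ms4a7 (-2.85 ± 0.36) and Tyrobp (-2.82 ± 0.38). All 8 lost the call without either wild-type array, at adjusted p up to 0.177 over the analyses that left out 1 array.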

How the results depend on the processing

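With 2 arrays a group, calls near the threshold moved easily. Among genes above the median level 0 passed, but of the 10 genes only Rab6b and Scn4b remained to be tested there. The filter itself removed the others, whose levels in Galgt2 transgenic muscle lay between percentiles 21.3 and 53.4 of all genes. The 10 genes of Galgt2 transgenic mdx against Galgt2 transgenic became 3 with the 8 arrays of the set alone and 4 after quantile normalization. The 10 became 0 with the Gapdh ratio as a covariate and 0 from the 4 arrays alone. They ranged from 4 to 22 with 1 array left out. The 8 interaction genes became 22 after median scaling (10 higher and 12 lower), 13 after quantile normalization (4 higher and 9 lower), 5 with 16 added before log2, 3 above the median level, 5 with mean probe sets, 20 with trend and robust moderation, 0 with the covariate and 3 with array weights, and ranged from 0 to 142. The 990 genes of mdx against wild type became 1620 after median scaling and 594 with array weights, and ranged from 132 to 1338. Quantile normalization gave 559 higher and 441 lower there. Median scaling moved the median gene from 0.01 to -0.28 in mdx minus wild type and from 0.05 to 0.21 in the interaction. The replicate number as a block gave 3, 0 and 582 genes, but the labels tie no arrays by number, and the replicate deviations of group pairs correlated from -0.44 (wild type and mdx) to 0.54 (wild type and transgenic), with 0.098 for the 2 transgenic groups, so the block was not used for the reported calls. Leaving out both mdx arrays, chosen after seeing the data, gave 11 genes. Of the single-gene results under alternatives, 2308 kept their side of the threshold, 190 lost it, 18 gained it and 0 reversed. The causes were not tested.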

Other observations

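Among lists of other tissues and stress genes, 0 genes passed. Dsp, desmoplakin of desmosomes, had log2 levels of 7.58 and 6.73 in Galgt2 transgenic and 9.23 and 9.53 in Galgt2 transgenic mdx muscle, against 4.20 and 4.26 in wild-type and 3.36 and 3.19 in mdx muscle (2.23 ± 0.48, adjusted p = 0.507). The skin list that holds it had a median of 0.07. Scx, the tendon transcription factor scleraxis, had 6.71 and 6.69 against 7.81 and 7.79 (1.10 ± 0.30, adjusted p = 0.984). The 11 tendon genes had a median of 0.01, with 6 above and 5 below 0. Retn, the fat cell hormone resistin, had 9.30 and 8.20 against 10.24 and 10.50 (1.62 ± 0.47, adjusted p = 1.00), with Adipoq, adiponectin, at 0.78 ± 0.28. The 11 measured adipocyte genes had a median of 0.13, which was 0.005 after scaling to the same median. Trib3, a stress-induced pseudokinase, had 8.20 and 7.59 against 9.20 and 8.76 (1.08 ± 0.31, adjusted p = 1.00), while 34 unfolded protein response genes had a median of 0.13. Heat shock genes had 11 of 15 above 0 and a median of 0.27, which was 0.02 without Galgt2 transgenic mdx replicate 1 and 0.15 after scaling to the same median, with Hspa1a at 6.77 and 6.41 against 8.75 and 6.86. The 5 red blood cell genes had a median of -0.23, which was 0.25 without Galgt2 transgenic replicate 1 and 0.06 without Galgt2 transgenic mdx replicate 1.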
